A study of Mus musculus with 11 samples.

Results

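The comparison described here is that of tumors from mice given bevacizumab, a humanized antibody that binds VEGF-A, with tumors from mice given vehicle, and it covers the genes of the mouse host. A gene was included when its probe had a detection p under 0.05 on at least 1 of the 6 arrays of these groups, which held for 9229 of the 10933 genes detected on any of the 11 arrays of the series. The tumors were subcutaneous xenografts of A375, a human melanoma line with mutant BRAF, in CD1 female athymic mice that were 6 weeks old when the cells were injected. Per the labels, treatment began at a tumor volume of 150 to 200 mm3 and lasted 12 days, while the study's methods give a larger starting volume and a slightly longer course. Bevacizumab was given at 10 mg/kg by intraperitoneal injection 3 times per week, and the label of the Vehicle group names methylcellulose, the carrier of the oral drug PLX4720, so the groups may differ in route and carrier as well as in antibody. Each of these groups had 3 arrays, described by the study as biological replicates of a single tumor line, and the groups PLX4720 (3 arrays, 60 mg/kg) and COMBO (both drugs, 2 arrays) entered the fit and a single comparison at the end.

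VEGF-A drives the sprouting of capillaries by binding receptors on endothelial cells, chiefly VEGFR2 (Kdr), with VEGFR1 (Flt1) as a receptor that can also act as a decoy. Tip cells lead each sprout and respond to VEGF-A, and Notch signaling between neighbouring endothelial cells limits how many tip cells form. In a xenograft the vessels, fibroblasts and leukocytes are mouse cells while the cancer cells are human, so a mouse array reads mainly the stroma. Bevacizumab binds human VEGF-A, made here by the tumor cells, far better than mouse VEGF-A. Athymic mice lack mature T cells and retain natural killer cells, B cells and myeloid cells. Tumor RNA was extracted from whole tissue, so fewer cells of a type and less RNA per cell cannot be told apart, and whether human RNA bound to mouse probes had a part in any value was not tested.

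Values are log2 signal after background correction and quantile normalization, a level is that signal, and a difference is the bevacizumab mean minus the Vehicle mean. Between 10115 and 11797 probes were detected per Vehicle or bevacizumab array, and precision is limited by how few arrays there are. The PLX4720 arrays, which entered the normalization and the fit, had 14543, 15130 and 13049, and the COMBO arrays 11536 and 12315. Correlations between arrays ran from 0.951 to 0.962 within Vehicle, from 0.921 to 0.946 within bevacizumab and from 0.921 to 0.954 between the groups. Bevacizumab replicate 2 stood apart by genes of skeletal muscle. The level of Acta1, the actin of skeletal muscle fibers, was 12.80 on that array, 9.52 on Vehicle replicate 2 and between 4.65 and 5.08 on the other 4 arrays. Tnnt3, a troponin of fast muscle fibers, stood at 9.32 on bevacizumab replicate 2 and at most at 5.09 elsewhere. In all, 89 genes were at least 1 higher on bevacizumab replicate 2 than on any other array, against 9 to 63 for the other 5 arrays, and 16 of the 17 muscle genes measured were among the 89. In the other direction bevacizumab replicate 1 stood apart, with 91 genes at least 1 lower than on any other array. That count was 16 on bevacizumab replicate 2 and 7 to 46 on the other 4 arrays. The mean level of the 17 muscle genes was 9.59 on bevacizumab replicate 2 and 6.60 on Vehicle replicate 2, and it lay between 5.19 and 5.41 on the others. Their median difference was 1.14 with all arrays and -0.23 without bevacizumab replicate 2. Genes of adipocytes also varied from array to array: the mean level of 8 of them was 8.53 on bevacizumab replicate 1 and 7.52 on replicate 2, but 5.69 on replicate 3, against 5.71 to 6.76 on the Vehicle arrays. Adipoq, an adipocyte hormone, ranged from 5.0 to 9.76 among bevacizumab arrays and from 4.90 to 6.97 among Vehicle arrays. None of the muscle genes was among the genes past a threshold below (0 of 17, beside 0.845% of all genes). A gene high on 1 array of a group has a large spread, so this count cannot show whether the muscle signal affected the calls. The medians of gene lists are given with and without bevacizumab replicate 2. With the muscle signal of each array as a covariate in the fit, 36 genes were higher and 56 lower at the threshold described below, 0 passed limma's adjusted p, and the medians given below for endothelial and natural killer cell genes were -0.47 and 0.89. Whether the fat signal had a part in other differences was not tested.

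**Figure D1:**
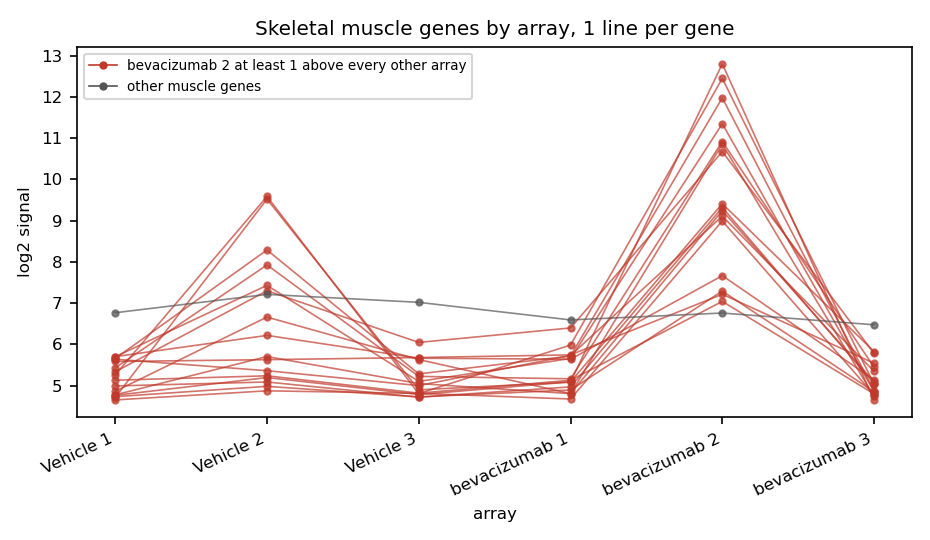
Log2 signal (vertical axis) of the 17 skeletal muscle genes measured on each of the 6 arrays (horizontal axis), with 1 line per gene; red lines are the 16 genes at least 1 higher on bevacizumab replicate 2 than on any other array. The peak on bevacizumab replicate 2 reaches 12.80 (Acta1), a smaller one appears on Vehicle replicate 2, and the replicates have no order.

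Most host genes differed little between the groups. The middle of the distribution of differences ran from -0.26 (25th percentile) to 0.25 (75th percentile) around a median of -0.001, 80.1% of genes lay within 0.5 of zero, and the median SD within a group was 0.38. After Benjamini-Hochberg adjustment in limma's moderated test over all groups, 1 gene rose at an adjusted p under 0.05 (0.0108% of genes tested) and 0 fell (0.0%), while an unadjusted p under 0.05 was reached by 326 genes on the higher side (3.53%) and 373 on the lower (4.04%). The study's methods selected genes at an absolute log2 difference of at least 1 and an unadjusted p under 0.01, called the methods threshold here. It was passed by 28 higher genes (0.303%) and 50 lower genes (0.542%), and 25 of these 78 were not detected on any array of a group. Genes detected on bevacizumab arrays only (1099) or on Vehicle arrays only (598) entered through the group where they were higher, so a difference in them is partly set by the detection rule; lists below are therefore also described over the members detected in both groups, where the median over all 7532 such genes was -0.02. These counts of 28 and 50 depended on single arrays: without Vehicle replicate 1 they were 68 higher and 79 lower, the higher count was 45 without Vehicle replicate 3, 48 without bevacizumab replicate 1 and 43 without bevacizumab replicate 3, and without bevacizumab replicate 2 the counts were 62 and 67. Of the 78 genes, 56 also passed without bevacizumab replicate 2 and 78 kept their sign. Passing whichever of the 11 arrays was left out held for 28 of the 78. Among them 10 genes also passed under all 4 other scalings of the signal: Clec4b1, Fpr2, Klra17 and Klrd1 on the higher side and Esm1, Etv1, Mest, Mmrn2, Nid2 and Ptn on the lower side.

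**Figure D2:**
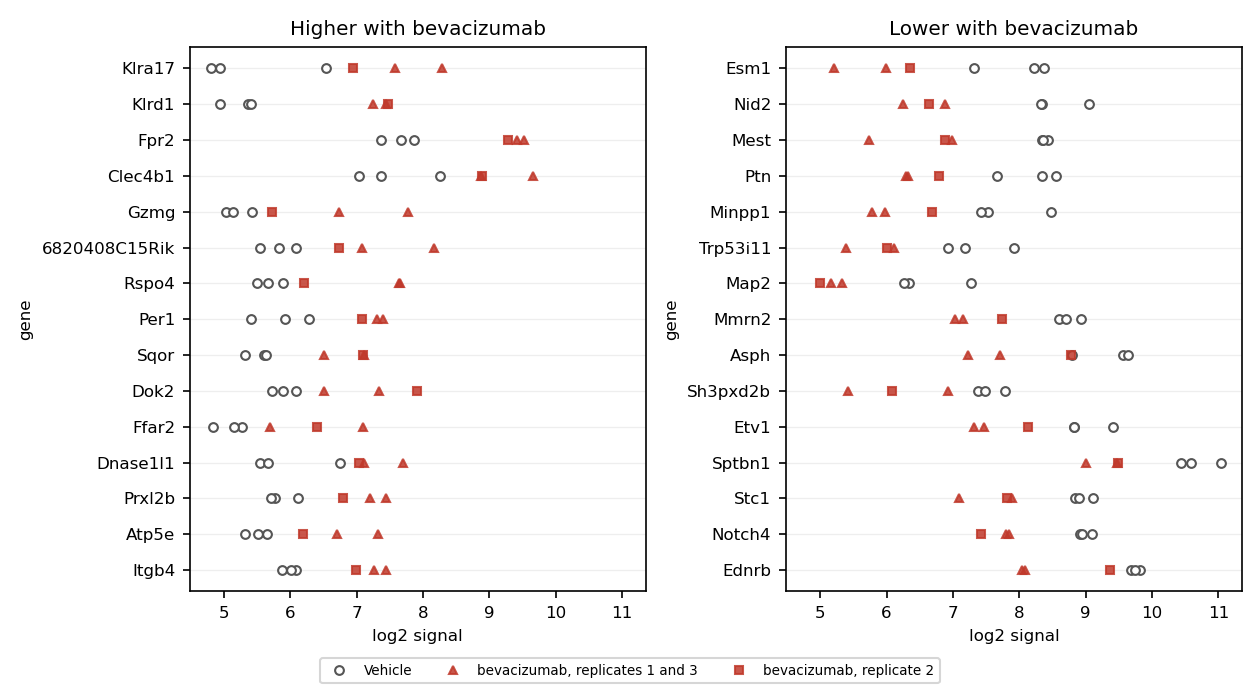
Log2 signal (horizontal axis) on each array of the 15 higher and the 15 lower genes (vertical axis) with the largest differences among those past the methods threshold whose groups do not overlap. Open circles are Vehicle arrays, red triangles bevacizumab replicates 1 and 3, and red squares bevacizumab replicate 2; Klrd1 sits at 5.40 or less in Vehicle tumors and at 7.25 or more in bevacizumab tumors.

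Genes of the endothelium were lower with bevacizumab. Of 33 endothelial markers measured, 29 had a lower mean, 11 were lower and 0 higher at an unadjusted p under 0.05 (4.04% and 3.53% of all genes), and for 12 all bevacizumab arrays lay below all Vehicle arrays, against 7.23% of all genes. The median difference of the list was -0.48, beside -0.001 over all genes, and -0.70 without bevacizumab replicate 2. Among the 29 markers detected in both groups, 27 had a lower mean and the median was -0.62. On single arrays the mean of the list, set against the Vehicle mean, was -0.08, -0.08 and 0.16 in Vehicle tumors and -0.37, -0.48 and -0.74 in bevacizumab tumors, so the groups did not overlap. A further 10 markers of the list had a named probe and did not meet the detection rule.

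The methods threshold was passed by 3 endothelial markers. Mmrn2, the endothelial matrix protein multimerin 2, stood at 8.61, 8.93 and 8.71 in Vehicle tumors and at 7.15, 7.74 and 7.03 in bevacizumab tumors, a difference of -1.44 (SE 0.27). Flt1 stood at 9.60, 9.69 and 9.37 against 8.46, 8.56 and 8.37 (difference -1.09, SE 0.25). Emcn, the sialomucin endomucin of capillaries and veins, had levels of 10.47, 10.50 and 10.23 against 9.28, 9.47 and 9.30 (difference -1.05, SE 0.24). In each of the 3, every bevacizumab array was below every Vehicle array, yet in limma the adjusted p was 0.309 for Mmrn2 and 0.409 for Flt1 and Emcn. Emcn missed the size limit without Vehicle replicate 2, with a difference of -0.999. Pecam1, the adhesion molecule CD31 used to count vessels, missed that limit with all arrays: it stood at 8.61, 8.74 and 9.06 against 7.64, 7.97 and 7.82, a difference of -0.99 (SE 0.26). The groups of Pecam1 did not overlap either. Cdh5, the cadherin of endothelial junctions, and Gpihbp1, which carries lipoprotein lipase to the capillary lumen, also had separate groups, with differences of -1.03 (SE 0.40) and -1.45 (SE 0.59). By contrast Kdr, the main VEGF-A receptor, had overlapping groups and a difference of -0.27 (SE 0.22). Kdr was dim, at 6.83, 7.03 and 6.56 against 6.53, 6.42 and 6.67, where the lowest signal among detected probes was 5.78 to 6.08 per array. The 4 markers with a higher mean in bevacizumab tumors (Myct1, Adgrf5, Mmrn1 and Lyve1) had overlapping groups.

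**Figure D3:**
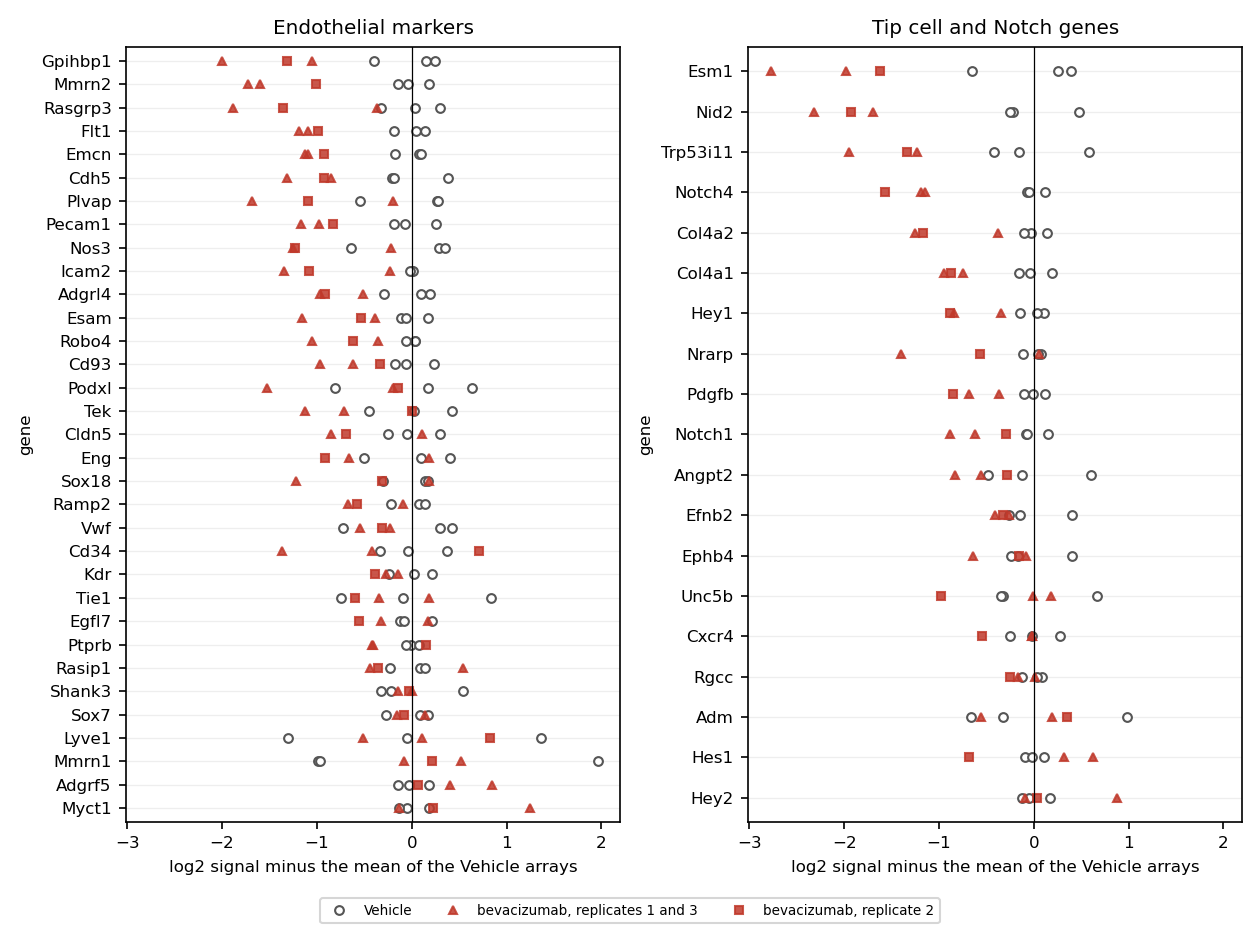
Log2 signal of each array minus the mean of the Vehicle arrays (horizontal axis) for the 33 endothelial markers and the 19 tip cell and Notch genes measured (vertical axis, ordered by difference). Open circles are Vehicle arrays, red triangles bevacizumab replicates 1 and 3 and red squares replicate 2; 29 of the 33 markers and 17 of the 19 tip cell and Notch genes have a lower mean with bevacizumab.

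Tip cell and Notch genes were lower to a similar degree. Of 19 measured, 17 had a lower mean, and 8 were lower and 0 higher at an unadjusted p under 0.05 (4.04% and 3.53% of all genes). The groups of 10 did not overlap, all lower, against 7.23% of all genes. The median difference was -0.60 with all arrays and without bevacizumab replicate 2 alike. Of the 17 detected in both groups, 16 had a lower mean. Esm1, endocan, a proteoglycan made by tip cells under VEGF-A, was the gene with the largest difference among lower genes whose groups did not overlap. Its levels were 8.37, 7.32 and 8.23 in Vehicle tumors and 5.20, 6.35 and 6.00 in bevacizumab tumors, a difference of -2.12 (SE 0.47, adjusted p = 0.407 in limma), and bevacizumab replicate 1 was not above background. Nid2, the basement membrane protein nidogen 2, stood at 8.35, 8.32 and 9.05 against 6.25, 6.64 and 6.88 (difference -1.98, SE 0.37, adjusted p = 0.309 in limma). Notch4, the endothelial Notch receptor, stood at 8.92, 8.94 and 9.10 against 7.84, 7.42 and 7.79. The Notch4 difference was -1.30 (SE 0.35), with no overlap, and it missed the methods threshold without Vehicle replicate 3 or without bevacizumab replicate 2 (-1.24 and -1.17). Trp53i11 was the fourth gene of the list past the threshold, at -1.51 (SE 0.49), and it failed when an array of Vehicle, bevacizumab or COMBO was left out, whichever of the 8 it was. Hey1, a Notch target, had a difference of -0.69 (SE 0.27) and separate groups, and the Notch targets Hes1 and Hey2 were the 2 members with a higher mean. Dll4, the Notch ligand of tip cells, and Apln, a tip cell peptide, were not detected on any of the 6 arrays.

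The window of 250 bases upstream of the annotated start is shown for 4 of these genes. It places vessel genes that the results turn on beside AGGAAG, a longer form of the core motif bound by ETS factors. These factors act in many endothelial genes. Sequences are RefSeq's on GRCm38.p6, 5′ to 3′ on the strand of the gene, and capitals mark AGGAAG or its reverse complement CTTCCT. Esm1 lies at chr13:113209409-113209658 (plus strand), Flt1 at chr5:147726012-147726261 (minus strand), Emcn at chr3:137340828-137341077 (plus strand) and Notch4 at chr17:34564045-34564294 (plus strand).
Esm1: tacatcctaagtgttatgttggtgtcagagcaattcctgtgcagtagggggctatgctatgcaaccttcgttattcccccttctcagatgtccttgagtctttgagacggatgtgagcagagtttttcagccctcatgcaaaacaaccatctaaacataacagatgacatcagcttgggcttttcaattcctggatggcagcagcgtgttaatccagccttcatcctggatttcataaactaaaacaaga
Flt1: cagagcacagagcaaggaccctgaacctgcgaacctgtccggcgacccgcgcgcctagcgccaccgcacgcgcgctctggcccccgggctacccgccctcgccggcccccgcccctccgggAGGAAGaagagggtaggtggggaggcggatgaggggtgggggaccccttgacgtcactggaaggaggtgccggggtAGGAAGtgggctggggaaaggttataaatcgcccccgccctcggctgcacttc
Emcn: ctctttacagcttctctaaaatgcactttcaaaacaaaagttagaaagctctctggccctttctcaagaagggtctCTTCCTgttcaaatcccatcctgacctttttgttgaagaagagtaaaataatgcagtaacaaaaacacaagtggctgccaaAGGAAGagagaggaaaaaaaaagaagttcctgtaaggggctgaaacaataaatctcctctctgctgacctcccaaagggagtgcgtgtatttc
Notch4: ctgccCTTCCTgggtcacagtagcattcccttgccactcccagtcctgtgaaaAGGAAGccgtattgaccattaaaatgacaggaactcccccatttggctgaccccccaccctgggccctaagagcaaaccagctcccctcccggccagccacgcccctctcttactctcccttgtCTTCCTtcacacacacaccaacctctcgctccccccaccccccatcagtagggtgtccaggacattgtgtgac
These windows hold 0, 2, 2 and 3 matches. The motif was present on either strand in the same window of 8734 of 27025 genes with a RefSeq sequence (32.3%), in 13 of the 31 endothelial, tip cell and Notch genes that matched the table (41.9%), in 9 of 22 higher genes past the methods threshold (40.9%) and in 14 of 41 lower ones (34.1%). A match is a run of letters and was not tested as a binding site. Shorter forms of the motif were not counted, so a window with 0 matches may still hold them.

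Basement membrane genes, which encode the sheet under endothelium, pericytes and epithelium, had a lower mean in all 11 members measured. The median difference was -0.50, and -0.73 without bevacizumab replicate 2. At an unadjusted p under 0.05, 4 were lower (4.04% of all genes), and 5 had separate groups (7.23% of all genes on the lower side). Nid2, Col4a1 and Col4a2 are also in the list of tip cell and Notch genes, so these lists are not independent. Col4a1 stood at 11.60, 11.72 and 11.95 against 11.01, 10.89 and 10.81, a difference of -0.85 (SE 0.24) with no overlap. Col4a2 and Col18a1, the source of endostatin, had differences of -0.93 (SE 0.42) and -0.80 (SE 0.28), again with separate groups. The collagens of the interstitial matrix had no such shift: the median of 13 was -0.04 (0.03 without bevacizumab replicate 2), 0 passed an unadjusted p of 0.05, and Col1a1 overlapped between groups with a difference of -0.38 (SE 0.44).

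VEGF ligands and receptors were split in direction. Of 10 measured, 5 had a lower mean, and the median difference was 0.17 (0.20 without bevacizumab replicate 2). Vegfa of the host stood at 8.03, 7.67 and 9.59 against 8.56, 8.90 and 9.42, with overlap and a difference of 0.53 (SE 0.49). Flt4, the VEGFR3 of lymphatic and sprouting endothelium, was detected on all 3 Vehicle arrays and on none of the bevacizumab arrays (0 of 3), which puts it at least 1.42-fold lower (unadjusted p = 0.00985 in limma). A bound of this kind sets the dim group at the lowest signal among detected probes on each of its arrays. None of the 5 angiopoietin pathway genes passed an unadjusted p of 0.05 (0 in each direction), and their median was -0.25, or -0.41 without bevacizumab replicate 2; Angpt2, a destabilizer of vessels, had a difference of -0.56 (SE 0.33) and Tek, its receptor, of -0.61 (SE 0.33). Among 12 markers of pericytes and smooth muscle, the mural cells around vessels, the median was 0.04 (-0.09 without bevacizumab replicate 2). Of these markers, 2 were lower at that p, beside 4.04% of all genes. Mcam, which endothelium also carries, stood at 8.99, 9.34 and 8.69 against 8.31, 7.83 and 7.50 (difference -1.12, SE 0.38), and Kcnj8, a potassium channel of pericytes, differed by -0.85 (SE 0.28). Cspg4, the pericyte proteoglycan NG2, and Acta2, smooth muscle actin, had overlapping groups, with differences of -0.32 and 0.12. The 6 lymphatic markers had a median of 0.18 whose sign depended on single arrays: leaving out Vehicle replicate 1, 2 or 3 gave -0.08, -0.39 and 0.93, and leaving out bevacizumab replicate 1 or 2 gave 0.42 and 0.08. Ccl21a, a lymphatic chemokine, was 6.87, 4.96 and 10.22 in Vehicle tumors and 10.20, 9.40 and 10.00 in bevacizumab tumors, and the high Vehicle array made the groups overlap.

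The only gene past the adjusted test, Klrd1, belongs to natural killer (NK) cells. It encodes CD94, which pairs with NKG2 receptors on NK cells and reads MHC class I. Its levels were 5.36, 5.40 and 4.94 in Vehicle tumors, none above background, and 7.25, 7.47 and 7.45 in bevacizumab tumors, all detected. Klrd1 rose by 2.16 (SE 0.27, 95% confidence interval 1.56 to 2.75, adjusted p = 0.0386 in limma), or at least 2.75-fold against the floor. The adjusted call was lost without any Vehicle, bevacizumab or COMBO array or without PLX4720 replicate 1, where the difference stayed between 2.03 and 2.29; it held in 8 of 15 other settings and in 1 of the 4 other scalings, and without the detection filter the adjusted p was 0.0914. Of 14 NK genes measured, 7 (Klrd1 among them) were detected on no Vehicle array and entered through bevacizumab arrays alone, so their higher mean is built into the detection rule, and Itga2 entered through Vehicle arrays alone. Over the 6 detected in both groups, 4 had a higher mean, 2 (Ctsw and Ccl5) were past an unadjusted p of 0.05 and the median was 0.69. Over all 14, 11 had a higher mean. An unadjusted p under 0.05 was reached by 6 on the higher and 1 on the lower side (3.53% and 4.04% of all genes). The methods threshold was passed on the higher side by 3 of the list, against 0.303% of all genes. The list's median difference was 0.76, and 0.84 without bevacizumab replicate 2. A further 17 genes of the list had a named probe and were not detected on any of the 6 arrays, among them the defining markers Ncr1, Klrb1c, Il2rb and Eomes and the protease Gzmb. Per array, the mean of all 14 against the Vehicle mean was 0.04, 0.20 and -0.25 in Vehicle tumors and 0.64, 0.71 and 0.64 in bevacizumab tumors. This includes the 7 that entered through bevacizumab arrays alone, so the separation is partly set by the detection rule.

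Klra7, a Ly49 receptor of the list, was detected on 0 of 3 Vehicle and 2 of 3 bevacizumab arrays, with levels of 5.25, 5.03 and 4.66 against 5.81, 6.22 and 6.54 (at least 1.19-fold higher). Ctsw, cathepsin W of NK and cytotoxic T cells, stood at 5.48, 5.39 and 6.06 against 6.55, 7.09 and 6.65, a difference of 1.12 (SE 0.33) that missed the methods threshold without Vehicle replicate 1 or 2 or bevacizumab replicate 2 or 3. Klrb1b, an inhibitory receptor of NK cells outside the list, was at least 1.54-fold higher (detected on 0 and 3 arrays), and missed the threshold without Vehicle replicate 1 or bevacizumab replicate 3. Members of the Klra and Klrb1 families are close copies of each other, so a probe may read more than 1 of them. Klra17, which encodes Ly49Q, a family member known from plasmacytoid dendritic and myeloid cells, had the largest difference of the 28 higher genes, at 6.53, 4.93 and 4.80 against 7.57, 6.94 and 8.29 (difference 2.18, SE 0.47), with 1 Vehicle array above background. Gzmg, a granzyme, was not detected in Vehicle tumors and stood at 6.74, 5.73 and 7.78 in bevacizumab tumors, at least 1.76-fold higher. Ccl5, a chemokine made by NK cells among others, had separate groups and a difference of 1.32 (SE 0.44), short of the threshold. Itga2, the integrin CD49b, which NK cells share with other cells, went the other way: it was detected on 2 of 3 Vehicle and 0 of 3 bevacizumab arrays, at least 1.28-fold lower, and missed the threshold without Vehicle replicate 2 or 3 or bevacizumab replicate 1. Of 6 T cell markers measured, 0 passed an unadjusted p of 0.05 in limma and the median was 0.13 (0.24 without bevacizumab replicate 2); Zap70 and Cd3g had overlapping groups, and Cd3e, Cd4 and Cd8a were not detected.

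By the list's median, neutrophil genes were higher on 2 of the 3 bevacizumab arrays. This median against the Vehicle mean was 0.94 on replicate 1, 0.55 on replicate 2 and -0.13 on replicate 3, and between -0.03 and -0.001 on the Vehicle arrays. By the list's mean all 3 were higher, at 0.89, 0.71 and 0.43, against 0.03, 0.01 and -0.05 on the Vehicle arrays. Both measures include members that entered through bevacizumab arrays alone. Of 15 measured, 6 were detected on no Vehicle array and entered through bevacizumab arrays alone; 8 of the 9 detected in both groups had a higher mean, with a median of 0.56, and 2 of them passed an unadjusted p of 0.05. Over all 15 the median difference was 0.56, and 0.37 without bevacizumab replicate 2. Fpr2, which senses formylated bacterial peptides on phagocytes, was the steadiest of them. It stood at 7.66, 7.86 and 7.36 in Vehicle tumors and at 9.42, 9.27 and 9.52 in bevacizumab tumors, a difference of 1.78 (SE 0.29, adjusted p = 0.225 in limma). On the 6 arrays alone the adjusted p of Fpr2 was 0.0276. Lcn2, lipocalin 2 of neutrophil granules, stood at 8.60 and 8.26 on bevacizumab replicates 1 and 2 but at 5.45 on replicate 3, within the Vehicle range of 5.05 to 6.43. S100a8 and S100a9, the abundant calprotectin subunits, had overlapping groups and differences of 0.49 (SE 0.56) and 0.56 (SE 0.56).

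Clec4b1, a C-type lectin of dendritic and myeloid cells, stood at 8.26, 7.03 and 7.36 against 8.87, 8.90 and 9.66, with no overlap and a difference of 1.59 (SE 0.34), past the methods threshold. Its 2 other detected probes differed by 1.46 and 0.77. Also past it was Ffar2, a receptor for short-chain fatty acids on neutrophils, which was detected on 0 Vehicle and 2 bevacizumab arrays, at least 1.38-fold higher, and missed the threshold without any of the Vehicle arrays or bevacizumab replicate 1 or 2. Dok2, an adaptor that damps signaling in hematopoietic cells, differed by 1.35 (SE 0.35) and missed it without Vehicle replicate 3 or bevacizumab replicate 2. Fcgr4, an activating Fc receptor of mouse monocytes and neutrophils, stood at 11.29, 11.04 and 10.04 against 11.47, 11.87 and 12.36, a difference of 1.11 (SE 0.36) with close groups. Fcgr4 missed the threshold without either COMBO array, Vehicle replicate 2 or 3, or bevacizumab replicate 2 or 3.

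General macrophage markers were close to even. The median of 20 was 0.06 (0.17 without bevacizumab replicate 2, -0.13 without Vehicle replicate 3 and 0.29 without Vehicle replicate 1). In each direction 1 was past an unadjusted p of 0.05 (3.53% of all genes higher and 4.04% lower). Adgre1 (F4/80) and Cd14 overlapped between groups, with differences of -0.13 and -0.17. Other detected probes of Adgre1 were uneven, with differences of 0.17 and -0.97. Cx3cr1, the fractalkine receptor, was the gene past that p on the lower side, at 10.35, 10.39 and 10.19 against 9.28, 9.01 and 9.54, a difference of -1.03 (SE 0.34) with no overlap. Genes of alternative activation had a median of 0.08, which turned to -0.20 without bevacizumab replicate 2 and to -0.11 without Vehicle replicate 2, 0 of 15 passed that p in limma, and Arg1 (arginase 1) differed by 0.08 (SE 0.35). Genes of classical activation had a median of 0.38 (0.31 without bevacizumab replicate 2), with Ccl5 and Irf5 the 2 of 15 past that p, both higher (3.53% of all genes). Ccl2, the monocyte chemokine, stood at 7.06, 7.05 and 6.97 against 7.78, 7.79 and 8.15 (difference 0.88, SE 0.33), with no overlap.

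Genes of antigen presentation were higher on average, with Vehicle replicate 3 low. Of 12 MHC class II and dendritic cell genes, 10 had a higher mean and 5 had all bevacizumab arrays above all Vehicle arrays, against 6.74% of all genes, with a median of 0.54 (0.65 without bevacizumab replicate 2). Of the 12, 3 were detected on no Vehicle array and 1 on no bevacizumab array, so these counts are partly set by the detection rule. Among the 8 detected in both groups, 7 had a higher mean and the median was 0.94. H2-Eb1, an MHC class II chain, stood at 11.36, 11.17 and 9.32 against 11.97, 11.95 and 11.62, a difference of 1.23 (SE 0.56). Without Vehicle replicate 3 the median of the list was 0.39. Of 13 MHC class I and antigen processing genes, 11 had a higher mean and the median was 0.54, 0.25 without that array and 0.53 without bevacizumab replicate 2. Tap1, the peptide transporter, stood at 6.30, 6.02 and 5.85 against 7.15, 6.90 and 7.32. The Tap1 difference of 1.07 (SE 0.28) passed the methods threshold and missed it without PLX4720 replicate 1, Vehicle replicate 3 or bevacizumab replicate 3, at 0.976 to 0.997. Psmb10, a subunit of the immunoproteasome, had separate groups and a difference of 0.85 (SE 0.28). Interferon-stimulated genes had a median of 0.31 over 24 genes, 0.15 when Vehicle replicate 3 was left out and 0.18 without bevacizumab replicate 2, and 0 passed an unadjusted p of 0.05 in either direction.

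Programs of hypoxia, glycolysis and the cell cycle showed little shift. The median difference was 0.05 over 23 hypoxia-induced genes, 0.09 over 16 glycolysis enzymes and 0.09 over 25 cell cycle genes, with 0 higher genes at an unadjusted p under 0.05 in any of them. Without bevacizumab replicate 2 these medians were 0.09, 0.15 and 0.07, and that of the hypoxia genes became 0.02, -0.08 and 0.30 on leaving out Vehicle replicate 1, 2 or 3. Stc1, stanniocalcin 1, a secreted hormone induced by hypoxia and by VEGF-A in endothelium, was the exception among hypoxia genes. It stood at 8.84, 8.91 and 9.11 against 7.10, 7.82 and 7.89, a difference of -1.35 (SE 0.30) with no overlap. Activated fibroblast markers had a median of 0.24 (0.14 without bevacizumab replicate 2, 0.09 without Vehicle replicate 1 and 0.37 without Vehicle replicate 3), 0 of 20 past that p, and Lox, the collagen cross-linker, differed by 0.06 and Tgfb1 by -0.57, both with overlap. Among adhesion molecules, Selp, the P-selectin of platelets and endothelium, was higher by 0.98 (SE 0.44) with separate groups, while Icam2, carried by endothelium, had separate groups and a difference of -0.88 (SE 0.39).

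**Figure D4:**
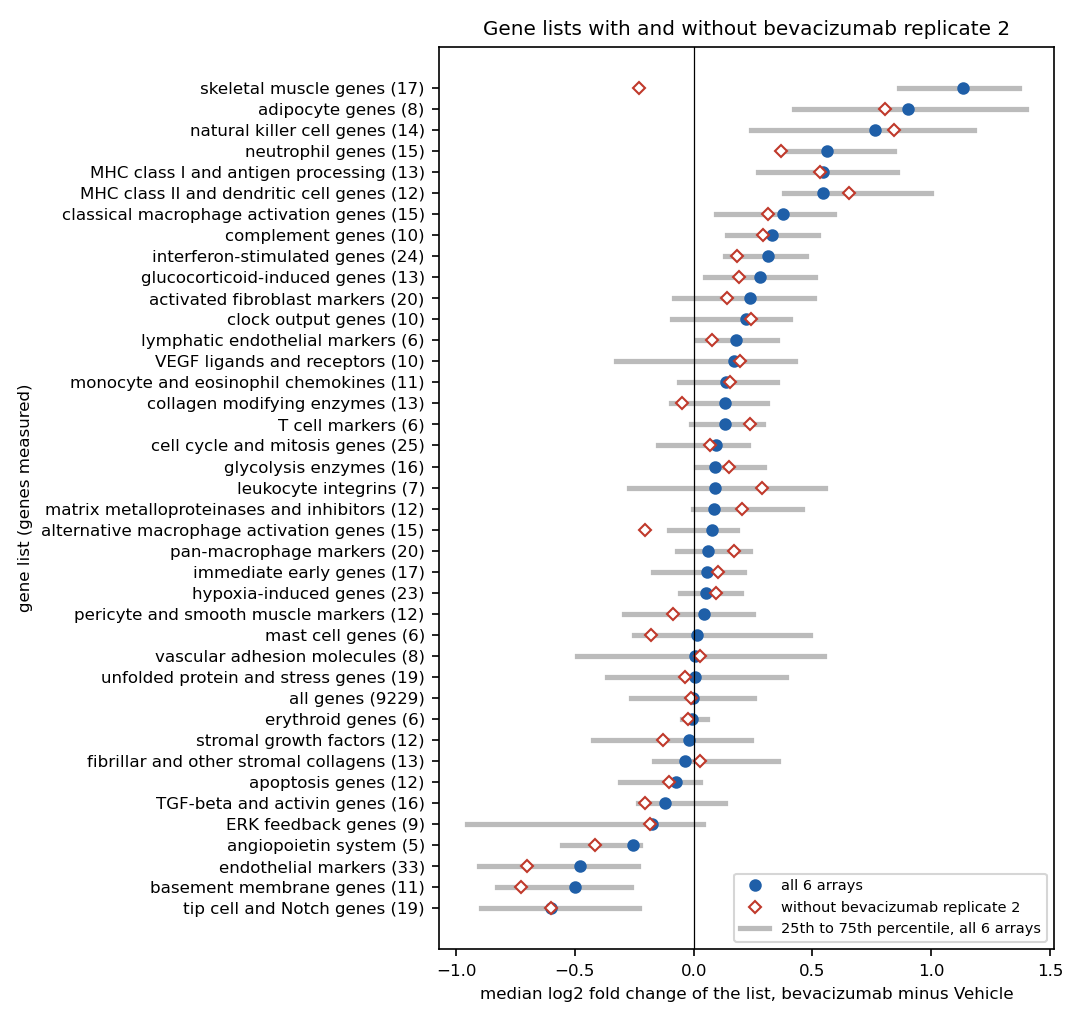
Median log2 difference, bevacizumab minus Vehicle (horizontal axis), of the gene lists with at least 5 genes measured and of all genes (vertical axis, number of genes in brackets). Blue points are all 6 arrays, open red diamonds the values without bevacizumab replicate 2 and grey bars the 25th to 75th percentile of the genes; skeletal muscle moves from 1.14 to -0.23 without that array, and the tip cell, basement membrane and endothelial lists stay below zero.

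Other lower genes past the methods threshold were measured with differing steadiness. Mest, an imprinted gene of mesenchyme and growing tissue, had nearly equal Vehicle levels of 8.43, 8.34 and 8.36 and stood at 6.99, 6.88 and 5.73 with bevacizumab (difference -1.84, SE 0.37), and its other detected probe differed by -1.78. Ptn, the growth factor pleiotrophin, stood at 7.67, 8.55 and 8.34 against 6.33, 6.78 and 6.29 (difference -1.72, SE 0.33). Igfbp3, a carrier of insulin-like growth factors, had the tightest groups, at 11.76, 11.83 and 11.88 against 10.63, 10.87 and 10.72 (difference -1.08, SE 0.23), and its other probe differed by -1.53. None of the 3 lost the threshold when an array was left out. Prrx1, a transcription factor of mesenchyme, differed by -1.21 (SE 0.25), and its 4 other probes by -1.04, -1.64, -0.05 and -0.98. Robo1, a guidance receptor, was detected on 3 Vehicle and 0 bevacizumab arrays and was at least 1.82-fold lower. Ednrb, the endothelin B receptor of endothelium and other cells, stood at 9.83, 9.68 and 9.75 against 8.04, 9.37 and 8.09, so that bevacizumab replicate 2 lay near the Vehicle arrays, and the threshold was missed without Vehicle replicate 1 or 3 or bevacizumab replicate 1 or 3. Hnrnpul1, an RNA-binding protein, had the largest lower difference of all, at -2.59, but its groups overlapped (7.27, 11.39 and 8.15 against 7.44, 5.93 and 5.67), its other probe differed by 0.05, and it lost the threshold without any of 9 arrays, including every PLX4720 and COMBO array, Vehicle replicate 2 or 3 and bevacizumab replicate 2 or 3.

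Among the remaining higher genes, Rspo4, a Wnt agonist of the R-spondin family, stood at 5.89, 5.50 and 5.67 against 7.65, 6.20 and 7.63 (difference 1.48, SE 0.38), and it missed the threshold without Vehicle replicate 2 or bevacizumab replicate 1 or 3. Per1, a core clock gene that glucocorticoids also induce, stood at 6.28, 5.91 and 5.41 against 7.40, 7.08 and 7.31 (difference 1.40, SE 0.43), with no overlap. Dbp, a clock output gene, differed by 0.84 (SE 0.29). Per1 missed the threshold without Vehicle replicate 2 or 3 or any bevacizumab array, and the median of 10 clock genes was 0.22 (0.24 without bevacizumab replicate 2). Sqor, the mitochondrial enzyme that oxidizes sulfide, was detected on 0 Vehicle and 3 bevacizumab arrays and was at least 1.96-fold higher with all arrays. It passed the methods threshold whichever array was left out. Because Sqor entered through bevacizumab arrays alone, its direction is partly set by the detection rule, and leaving out arrays does not remove that. Where genes past the threshold had other detected probes, these gave smaller differences: 5 other probes of 3 higher genes had a median of 0.765, beside 1.21 for the probes used, and 35 other probes of 20 lower genes a median of -0.457, beside -1.25. The sign was shared by 4 of the 5 and by 26 of the 35.

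Genes of the ERK feedback loop, transcribed when ERK is active and so a readout of that pathway, were split. Of 9 measured, 4 were lower at an unadjusted p under 0.05 and 0 higher (4.04% and 3.53% of all genes). The median was -0.18, the same without bevacizumab replicate 2, -0.46 without bevacizumab replicate 1 and 0.18 without Vehicle replicate 3. Etv1, an ETS factor, stood at 8.82, 9.41 and 8.82 against 7.32, 8.13 and 7.46 (difference -1.38, SE 0.31), and its 2 other probes differed by -0.46 and -0.24. Dusp4, a phosphatase of ERK, stood at 9.73, 10.51 and 9.69 against 9.04, 8.74 and 8.91 (difference -1.08, SE 0.29). It missed the threshold without Vehicle replicate 2 or bevacizumab replicate 2, and its 3 other probes differed by 0.25, 0.04 and 0.62. Spred1 and Dusp6, inhibitors of the pathway, had separate groups with differences of -0.95 (SE 0.32) and -0.53 (SE 0.23).

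The same antibody was given on top of PLX4720, an inhibitor of mutant BRAF, in COMBO, so COMBO minus PLX4720 gives a view of bevacizumab on arrays of other groups, which entered the comparison above through the normalization, the choice of probe and the estimate of the spread. Over all 9229 genes, 51.3% were lower in COMBO than in PLX4720, with a median of -0.015. Endothelial markers were lower in 28 of 33, with a median of -0.65, tip cell and Notch genes in 17 of 19, with a median of -0.60, and basement membrane genes in 10 of 11, with a median of -1.32. Some lists with little shift under bevacizumab alone were lower as well. Medians were -1.52 for interstitial collagens, -1.51 for lymphatic, -1.10 for activated fibroblast and -0.77 for pericyte and smooth muscle markers. The lower values were thus not particular to vessel genes, while general macrophage markers had a median of 0.40. Whether the larger number of probes detected on PLX4720 arrays had a part was not tested. NK genes were higher in 11 of 14, with a median of 0.35, whereas neutrophil genes were split, 8 higher and 7 lower. The genes chosen by the methods threshold did not follow as a set: 11 of the 28 higher genes were higher (39.3%) and 21 of the 50 lower genes lower (42%), with medians of -0.07 and 0.28. Nid2 differed by -1.89 (adjusted p = 0.0998 in limma) beside -1.98 without PLX4720, Mest by -1.58 and Rspo4 by 2.46. Klrd1 differed by 0.31, beside 2.16 without PLX4720, and the difference between these effects did not pass (adjusted p = 0.105 in limma). That difference passed for 12 genes in limma (0.13% of genes), Etv1, Dusp4 and Minpp1 among them, each lower with bevacizumab alone and higher in COMBO than in PLX4720. The count of 12 became 134 without PLX4720 replicate 2, 0 without Vehicle replicate 2 or 3, bevacizumab replicate 3 or either COMBO array, and 1 or 2 without any other array.

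**Figure D5:**
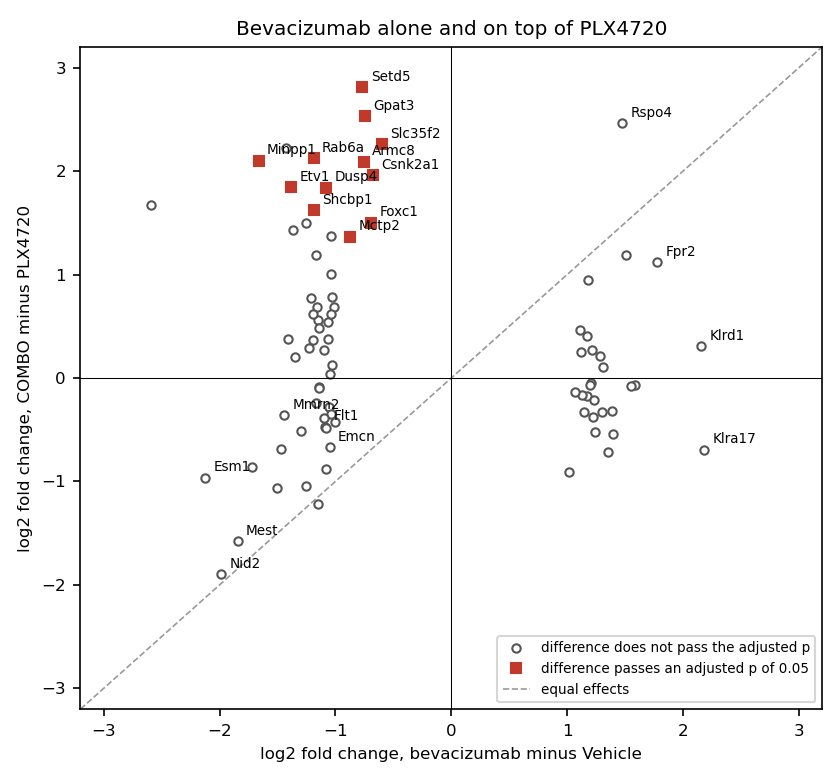
Log2 difference of bevacizumab minus Vehicle (horizontal axis) against that of COMBO minus PLX4720 (vertical axis) for the 78 genes past the methods threshold and the 12 genes whose effects differ. Red squares are those 12, open circles the other genes and the dashed line equal effects; the 12 lie in the upper left, and Nid2 lies close to the line at -1.98 and -1.89.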

How the data were processed

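Total RNA of frozen xenograft tumors was labeled as biotinylated cRNA and hybridized to Illumina MouseWG-6 v2.0 bead arrays, 1 color and 1 sample per array, and bead summaries were exported from GenomeStudio 2011.01. The intensities used here are the non-normalized values the authors deposited, with a detection p-value for each probe and array, also deposited, computed against negative control beads. A second deposited table holds intensities that the authors normalized by cubic spline, and it served as an alternative. No column of values was unmapped (0).

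Signals were corrected with limma's neqc (limma 3.58.1, R 4.3.3), which estimates background from detection p-values, adds an offset of 16, quantile normalizes and takes log2. Probes detected at p under 0.05 on at least 1 of the 6 arrays were kept, and each gene was read by its probe with the largest mean. Of 45281 probes, 34885 had 1 gene symbol in GEO's platform annotation, 18 several and 10378 none; 34807 matched a RefSeq gene by identifier and 0 symbols changed. Unnamed probes were tested separately. All 4 groups entered a limma fit with moderated variance (7 residual and 5.02 prior degrees of freedom), and p-values were adjusted by Benjamini-Hochberg over the 9229 genes. Levels were not compared between probes.

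Genes named in the text were those past the adjusted p, the 15 higher and 15 lower genes with the largest differences among those past the methods threshold without overlap, the 5 members with the largest absolute difference and every member past the threshold in each of 42 gene lists, and genes the study names. Genes outside this rule were chosen after their values were seen: Hnrnpul1, Igfbp3, Prrx1, Robo1, Fcgr4, Klrb1b, Cdh5, Hey1, S100a8, S100a9, Ddit3, Acta1, members named as not detected and members named for a mean against the trend of their list. The members and lists were chosen with earlier results of these data known. Alternatives covered the scaling, background correction, detection filter, probe choice, samples in the fit, replicate block, array weights, moderation, a muscle covariate and each array left out; the fit of the 6 arrays without bevacizumab replicate 2, the list medians over members detected in both groups, and the alternatives for the effects with and without PLX4720 and for unnamed probes, were added after the data were seen. The fit was tested on simulated data. Promoter sequences are RefSeq's (GRCm38.p6).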

Additional observations from a re-analysis of the deposited data

Results flagged for a closer look

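For 12 genes the effect of bevacizumab on top of PLX4720 (COMBO minus PLX4720) differed from its effect alone (bevacizumab minus Vehicle), with limma's adjusted p under 0.05 for the difference. All 12 were lower with bevacizumab alone and higher in COMBO than in PLX4720, and the difference of the log2 effects was 3.76 for Minpp1 (an inositol phosphatase), 3.58 for Setd5, 3.31 for Rab6a (a Golgi GTPase), 3.28 for Gpat3 (an enzyme of triglyceride synthesis), 3.23 for Etv1, 2.92 for Dusp4, 2.86 for Slc35f2, 2.85 for Armc8, 2.81 for Shcbp1, 2.64 for Csnk2a1 (a casein kinase subunit), 2.24 for Mctp2 and 2.20 for Foxc1 (a forkhead factor). The PLX4720 arrays were the lowest group, and whether their larger number of detected probes had a part was not tested. Gpat3 stood at 8.34, 8.92 and 9.0 in Vehicle tumors, 7.92, 8.11 and 8.0 with bevacizumab, 5.48, 5.83 and 5.81 with PLX4720 and 8.28 and 8.19 in COMBO, and its difference had an adjusted p of 0.0106 in limma. The Etv1 levels were 5.97, 6.83 and 6.57 with PLX4720 and 8.21 and 8.4 in COMBO, and those of Dusp4 were 6.92, 7.64 and 7.13 against 9.16 and 8.98. Gpat3 was called in 12 of 13 other settings and with 6 of the 11 arrays left out, and the other 11 genes in 5 to 8 settings and with 1 or 2 arrays left out.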

How the results depend on the processing

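The count of genes past the adjusted p was 1 higher and 0 lower. The higher count was 0 without background correction, with median scaling, cyclic loess, no detection filter, trended and robust moderation or a muscle covariate; on the 6 arrays alone the counts were 2 and 1, and 4 and 5 there without bevacizumab replicate 2; with an array left out they ranged from 0 to 2 and from 0 to 1. Past the methods threshold (28 higher, 50 lower), the counts were 18 and 16 with the authors' cubic spline values, 5 and 14 without background correction, 9 and 25 with median scaling, 7 and 30 with cyclic loess, and 55 and 83 on the 6 arrays without bevacizumab replicate 2; there were 45 higher with array weights and 32 lower at a detection p under 0.01, and with an array left out 21 to 68 and 42 to 79. Among NK genes, 7 of 14 were detected on no Vehicle array, so their median is partly set by the detection rule. It was 0.76 in the main fit, 0.45 without background correction and 1.12 with detection on all 3 arrays of a group or at p under 0.01. With an array left out it ran from 0.73 to 0.94. The median of tip cell and Notch genes was -0.35 without background correction and -0.64 to -0.46 with an array left out. The ranges with an array left out were -0.72 to -0.33 for endothelial markers and -0.23 to 2.11 for skeletal muscle. The 12 effects that differed with PLX4720 became 1 (spline, cyclic loess, muscle covariate), 26 (no background correction), 22 (detection on all 3 arrays), 4 (detection p under 0.01), 2 (no filter), 0 (mean of the probes), 23 (array weights, and trended moderation) and 0 to 134 with an array left out. The 13 unnamed probes became 5 (spline), 1 (no background correction), 3 (median scaling and cyclic loess), 6 (6 arrays alone), 20 (array weights) and 11 to 30 with an array left out. The causes were not tested. Deviations of same-numbered Vehicle and bevacizumab arrays correlated weakly, at 0.0878, 0.0919 and 0.0686. Each of the 3 bevacizumab arrays correlated best with the Vehicle array of its own number. Whether same-numbered arrays share a factor was not tested. With a replicate block the adjusted count was 0 higher, 37 higher and 54 lower passed the methods threshold, and 14 effects differed with PLX4720. Values of single named genes under alternatives were judged by unlike rules. For the 37 of 219 named genes past a threshold, a value was kept when the call held. For the other genes it was kept when the difference moved by less than the SD within groups. In all, 5393 values were kept, mostly of genes not past a threshold, and 47 of such genes moved. All 180 lost calls fell among the 37 genes, and 0 of their values reversed. With 25 of 78 genes detected on no array of a group, only bounds hold for these.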

Other observations

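Further gene groups were described by counts alone. Among 19 genes of the unfolded protein response, 2 were higher at an unadjusted p under 0.05 in limma (3.53% of all genes). These were Hspa5 (the chaperone BiP) by 0.68 and Ddit3 (CHOP) by 0.60, and the list median was 0.005 (-0.04 without bevacizumab replicate 2). Pdgfa, a ligand of the PDGF receptors, had a difference of -0.69. Of 6 mast cell genes, Hdc, which makes histamine, stood at 7.38, 7.36 and 7.67 in Vehicle tumors and at 8.28, 8.10 and 8.05 in bevacizumab tumors (difference 0.67) with no overlap, while the list's median was 0.01, or -0.18 without bevacizumab replicate 2. The median of 10 complement genes was 0.33 (0.29 without bevacizumab replicate 2), with 0 past an unadjusted p of 0.05 in limma.

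Among 2519 probes detected on the 6 arrays without a gene symbol in the annotation used, 13 passed the methods threshold, 8 higher and 5 lower, with differences from -1.99 to 1.27, and 0 passed the adjusted p.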
